A study of Caenorhabditis elegans with 17 samples.

Results

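The genes cul-6, skr-3, skr-4, skr-5 and eol-1 were followed across 4 RNAi groups. They are 5 of the 26786 genes in the deposited table of FPKM (fragments scaled by transcript length and by the mapped fragments of the library), found by their public gene names, and were chosen as genes higher together with the pals family in these same libraries. Their levels and changes are therefore given as descriptions without a test, and p-values are given only for genes outside the set and outside the pals family. All 5 passed the filter for low values (4 or more libraries at an FPKM of 1 or higher), as did 13084 genes in all. cul-6 passed only through libraries of the groups fed hsf-1 RNAi, where it was high.

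CUL-6 is a cullin, the scaffold of a multi-subunit ubiquitin ligase. In Caenorhabditis elegans it works with SKR-3, SKR-4 or SKR-5, Skp1-related adaptors that link the cullin to F-box proteins, which in turn pick the substrates. The genes belong to the intracellular pathogen response, a set of genes induced by microsporidia, by the Orsay virus and by blocking the proteasome, and the ligase is known to promote survival of heat shock when that response is on. The pals genes are a large nematode family of the same response: PALS-22 represses it and PALS-25 activates it. eol-1, named for enhanced olfactory learning, is also induced in that response and encodes a protein related to the mammalian decapping exonuclease DXO.

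The animals carried rmIs133 [unc-54p::Q40::YFP], a polyglutamine-YFP fusion driven in body wall muscle by a myosin promoter, in every group including the control. Whole animals were collected as day 1 adults after 96 h at 20 °C on bacteria for L4440 (empty vector, 5 libraries), ash-2 RNAi (4), hsf-1 RNAi (4) or ash-2 + hsf-1 RNAi together (4). ASH-2 is a subunit of a COMPASS-type histone methyltransferase complex and HSF-1 is the heat shock transcription factor. For the ash-2 and ash-2 + hsf-1 groups the parents too had been raised on ash-2 RNAi, a generation of treatment that the L4440 and hsf-1 groups did not have. Titles name the libraries biological replicates. RNA came from whole organisms, so fewer cells of a type and less RNA per cell cannot be told apart in any value below.

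The files hold no read totals. The smallest FPKM steps imply 16810000 to 20110000 fragments per library, as an estimate. In 4 libraries (ash-2 replicates 1 and 3, hsf-1 replicate 4 and ash-2 + hsf-1 replicate 3) 9401 to 10745 genes reached an FPKM of 1, against 11170 to 13066 in the other 13. What leaving out those 4 changes in the 5 genes is given with their values. The median log2 change of all tested genes was -0.32 in ash-2 against L4440, and rescaling by median of ratios or quantiles moved it to -0.03 and 0.06. In the other 4 comparisons that median was between -0.07 and 0.27 as deposited. Of the genes called in ash-2 against L4440, 78.8% were lower, but 62.7% under median of ratios and 44.7% under quantiles.

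Both targeted transcripts were lower where they were targeted. ash-2 stood at 16.4 ± 1.89 FPKM (SD, n = 5) in L4440, at 5.46 ± 3.64 (n = 4) under ash-2 RNAi and at 8.47 ± 3.42 (n = 4) under both clones. hsf-1 stood at 29.9 ± 2.92 FPKM in L4440, 12.50 ± 3.55 under hsf-1 RNAi and 9.74 ± 2.60 under both. Each targeted library lay below every L4440 library, and each of the 4 comparisons gave p = 0.0159 in a two-sided exact permutation test (adjusted 0.0159), the smallest that 126 arrangements can give. In limma's moderated test across all tested genes the ash-2 transcript under both clones was at -1.01 ± 0.43 on the log2 scale and was not called (limma adjusted p = 0.203), while the other 3 were called with a limma adjusted p of at most 0.00858. ash-2 averaged 8.61 FPKM under ash-2 RNAi and 9.99 under both when the 4 libraries with few detected genes were left out. Transcripts can include RNA made from the feeding construct, whose part was not tested.

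The target that was not fed also moved in the libraries with few detected genes. ash-2 was at 16.9, 17.4 and 16.8 FPKM in hsf-1 replicates 1, 2 and 3 and at 5.57 in replicate 4, inside the range of the libraries fed ash-2 RNAi (2.04 to 11.6 FPKM). In that respect the library labelled hsf-1 replicate 4 goes against its label, while its hsf-1 level of 7.33 FPKM goes with it. But that library was low more widely. Relative to the L4440 mean of log2(FPKM + 0.5), the median of all tested genes in it was -0.56, with ash-2 at -1.47 and hsf-1 at -1.95. Neither level alone therefore tells which RNAi the library had, and the part of this wider drop in the ash-2 level was not tested. hsf-1 was at 16.3 and 22.1 FPKM in ash-2 replicates 1 and 3, below the lowest L4440 library at 26.5, and at 41.5 and 40.2 in replicates 2 and 4, above the highest at 33.8.

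cul-6, the cullin, was the least abundant of the 5 per length. In the L4440 libraries it was listed at 0.334, 0.623, 0.306, 0.224 and 0.341 FPKM. The ash-2 libraries gave 0.0344, 0.0450, 0.0225 and 0.222 FPKM. All 4 were below the lowest L4440 library, the last of them by a margin under 1 fragment. Under hsf-1 RNAi the FPKM of cul-6 was 1.68, 2.36, 3.85 and 0.107, and under both clones it was 0.577, 3.03, 0.0599 and 1.97. In each of these groups 1 library sat below the L4440 range and at least 2 sat above it, so the groups overlapped. Mean levels were 0.366 ± 0.151 FPKM in L4440, 0.0810 ± 0.0946 in ash-2, 2.00 ± 1.55 in hsf-1 and 1.41 ± 1.35 in the double RNAi, so the mean was 5.47-fold that of L4440 under hsf-1 RNAi and 3.86-fold under both. Single libraries set these means: without ash-2 + hsf-1 replicate 2 the mean under both clones was 2.38-fold that of L4440, and without ash-2 replicate 4 the ash-2 mean was 9.29% of it instead of 22.2%. Few fragments lie behind these values: an estimated 10 to 27 per L4440 library, 1 to 10 per ash-2 library, 5 to 176 per hsf-1 library and 3 to 127 per double RNAi library.

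**Figure D1:**
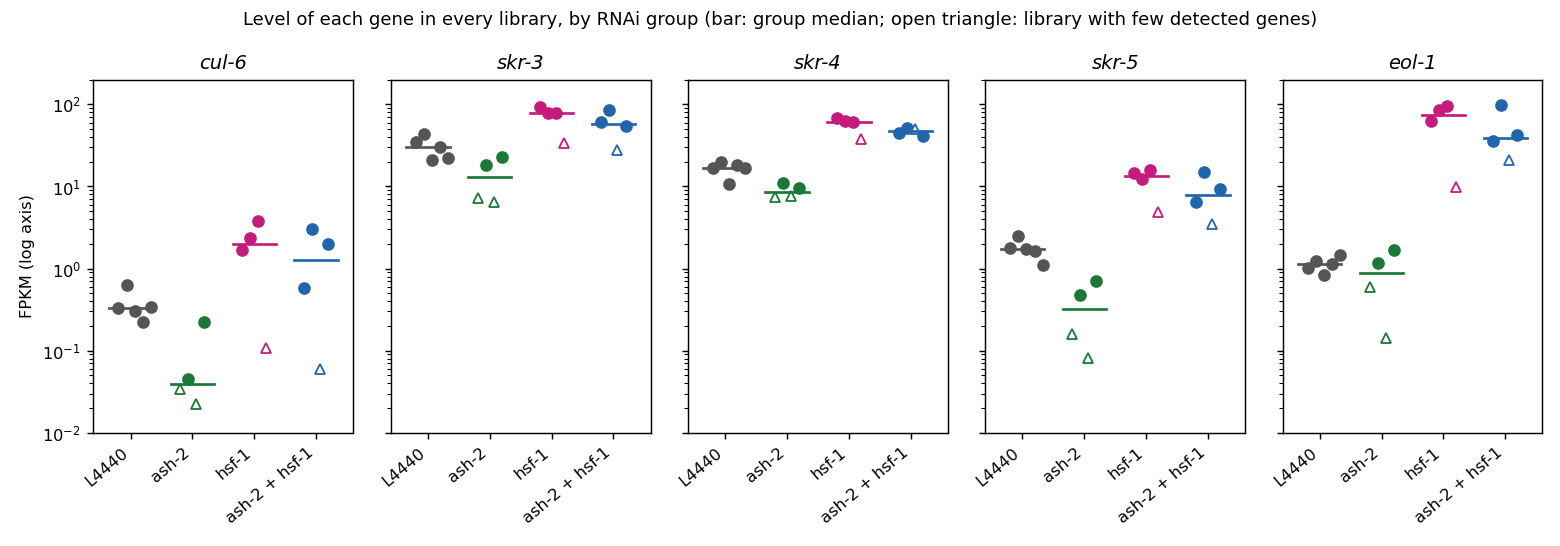
FPKM (log axis, the same range in each panel) of cul-6, skr-3, skr-4, skr-5 and eol-1 in every library of the 4 RNAi groups, with a bar at the group median and open triangles for the 4 libraries with few detected genes. eol-1 sits near 1 FPKM in L4440 and between 9.74 and 98.4 FPKM in the 8 libraries fed hsf-1 RNAi.

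skr-3, the most abundant of the adaptors in L4440, was at 34.5, 43.6, 21.1, 30.7 and 22.5 FPKM there. Under ash-2 RNAi skr-3 was at 7.30, 18.5, 6.39 and 22.7 FPKM, with 1 library inside the L4440 range and 3 below it. hsf-1 RNAi gave 92.4, 77.8, 79.5 and 33.5 FPKM for skr-3. Replicates 1, 2 and 3 were above every L4440 library, and replicate 4 was inside the L4440 range. Under both clones skr-3 was at 60.5, 85.0, 28.0 and 54.9 FPKM, again with 3 libraries above the L4440 range and 1 inside it. Group means were 30.5 ± 9.24, 13.7 ± 8.12, 70.8 ± 25.7 and 57.1 ± 23.4 FPKM in the order L4440, ash-2, hsf-1 and both. The mean under ash-2 RNAi was 45.0% of that in L4440, and 67.5% without the 2 ash-2 libraries with few detected genes.

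skr-4 showed the tightest groups of the 5. Its FPKM was 16.9, 19.8, 10.8, 18.2 and 16.6 in L4440 and 7.54, 10.98, 7.69 and 9.63 under ash-2 RNAi, where 1 library reached into the L4440 range. It was 67.5, 62.3, 60.6 and 37.9 under hsf-1 RNAi and 45.3, 51.8, 50.4 and 41.1 under both clones. All 8 libraries fed hsf-1 RNAi were above all L4440 and all ash-2 libraries, those with few detected genes included. The mean level of skr-4 was 16.5 ± 3.40 FPKM in L4440, 8.96 ± 1.65 in ash-2 (54.4% of L4440), 57.1 ± 13.1 in hsf-1 (3.47-fold) and 47.1 ± 4.90 in the double RNAi (2.86-fold).

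skr-5 was low in control animals, at 1.79, 2.51, 1.73, 1.66 and 1.10 FPKM. The ash-2 libraries gave 0.161, 0.474, 0.0821 and 0.704 FPKM for skr-5. It reached 14.6, 12.3, 15.9 and 4.90 FPKM under hsf-1 RNAi and 6.53, 15.1, 3.52 and 9.42 under both. The ash-2 group was thus wholly below L4440 and both groups fed hsf-1 RNAi were wholly above it. Means were 1.76 ± 0.503 FPKM in L4440, 0.355 ± 0.287 in ash-2 (20.2% of L4440), 11.9 ± 4.91 in hsf-1 (6.79-fold) and 8.65 ± 4.94 in the double RNAi (4.92-fold). An estimated 1 to 9 fragments per library lie behind the ash-2 values and 13 to 29 behind the L4440 values.

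The 3 adaptors did not keep their proportions. Their summed level was 48.7 ± 12.5 FPKM in L4440, 23.0 ± 9.83 in ash-2, 140 ± 43.4 in hsf-1 and 113 ± 29.1 in the double RNAi. skr-5 made up 3.66% ± 0.916 of that sum in L4440 and 1.34% ± 0.667 in ash-2. Under hsf-1 RNAi it made up 8.26% ± 1.54, with every library (lowest 6.42%) above every L4440 library (highest 5.15%). Under both clones the share of skr-5 was 7.25% ± 2.64, and its lowest library, at 4.30%, lay inside the L4440 range. The share of skr-3 was lower in turn: 62.1% ± 4.00 in L4440 and 49.7% ± 4.00 in hsf-1, with no overlap between those groups. In the double RNAi the skr-3 share ran from 34.1% to 56.0%, which reaches the lowest L4440 library at 55.9%. The 3 genes are related in sequence, and how fragments that match more than 1 of them were assigned is not given in the sources used here.

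**Figure D2:**
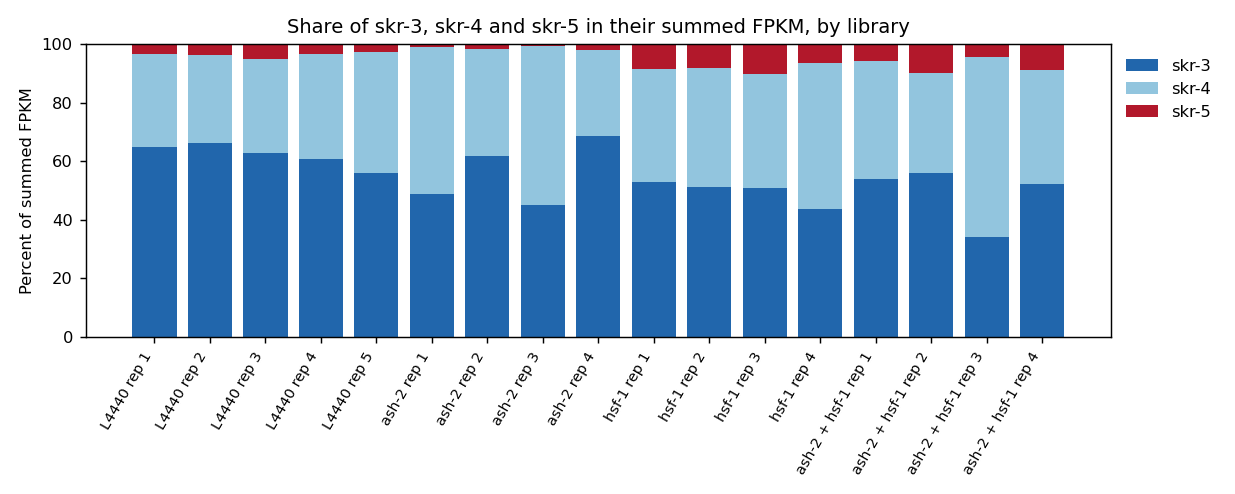
Percent of the summed FPKM of skr-3, skr-4 and skr-5 held by each of the 3 genes, 1 stacked bar per library, ordered by RNAi group. The skr-5 part is between 2.73% and 5.15% in L4440, at most 2.13% in ash-2 and between 6.42% and 10.2% in hsf-1.

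eol-1, related to decapping exonucleases, had the largest change of the 5 under hsf-1 RNAi. In L4440 it was at 1.01, 1.25, 0.833, 1.15 and 1.47 FPKM. The ash-2 libraries gave 0.599, 1.17, 0.142 and 1.70 FPKM, on both sides of the L4440 range. Under hsf-1 RNAi eol-1 reached 62.2, 84.7, 96.9 and 9.74 FPKM, and under both clones 35.8, 98.4, 21.1 and 42.2. The lowest of these 8 libraries was 6.63-fold the highest L4440 library. Means were 1.14 ± 0.240 FPKM in L4440, 0.903 ± 0.679 in ash-2, 63.4 ± 38.5 in hsf-1 and 49.4 ± 33.9 in the double RNAi. The mean under hsf-1 RNAi was 55.4-fold that of L4440 and 71.1-fold without hsf-1 replicate 4. The mean under both clones was 43.2-fold.

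Per length, the order of the 5 genes turned over between groups. In L4440 the mean level ran down from skr-3 through skr-4, skr-5 and eol-1 to cul-6. The ranges of skr-3 and skr-4 did not overlap there, while those of skr-5 and eol-1 did. Under hsf-1 RNAi the means of skr-3, eol-1 and skr-4 were 70.8, 63.4 and 57.1 FPKM, which did not differ beyond their spread. All 5 genes had the same order of groups by mean level: ash-2 lowest, then L4440, then both clones, then hsf-1. Without the 4 libraries with few detected genes that order did not hold for eol-1, whose mean was then 1.435 FPKM in ash-2 and 1.14 in L4440. Neighbours in that order overlapped for both clones against hsf-1 in all 5 genes. ash-2 and L4440 overlapped for skr-3, skr-4 and eol-1, and L4440 and both clones overlapped for cul-6 and skr-3.

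On the log2(FPKM + 0.5) scale the fitted changes of hsf-1 against L4440 were 1.23 ± 0.52 (SE) for cul-6, 1.16 ± 0.41 for skr-3, 1.76 ± 0.21 for skr-4, 2.37 ± 0.39 for skr-5 and 4.88 ± 0.57 for eol-1. The added 0.5 understates changes of genes as low as cul-6. Ranked from the highest of 13084 changes, eol-1 was number 6, skr-5 number 96, skr-4 number 234, cul-6 number 522 and skr-3 number 607. Ranges did not overlap for 3 of the 5 (skr-4, skr-5 and eol-1), beside 10.5% of all tested genes that were higher with no overlap, and nothing is read from that since the genes were chosen on these groups. Without the 4 libraries with few detected genes all 5 were higher with no overlap, beside 27.4% of tested genes.

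For both clones against L4440, which shares its controls with the previous comparison, the changes were 0.82 ± 0.52 for cul-6, 0.84 ± 0.41 for skr-3, 1.51 ± 0.21 for skr-4, 1.88 ± 0.39 for skr-5 and 4.71 ± 0.57 for eol-1. The same 3 genes were higher with no overlap, beside 5.24% of tested genes. Without the 4 libraries skr-3 joined them, beside 7.39%. For ash-2 against L4440 the changes were -0.57 ± 0.52 for cul-6, -1.27 ± 0.41 for skr-3, -0.83 ± 0.21 for skr-4, -1.43 ± 0.39 for skr-5 and -0.36 ± 0.57 for eol-1. cul-6 and skr-5, 2 of the 5, were lower with no overlap, beside 18.4% of tested genes. The same 2 were lower with no overlap without the 4 libraries, beside 21.2%. The sign for cul-6 turned to 0.21 and that for eol-1 to 0.39 under quantile normalization, and eol-1 stood at 0.23 without the 4 libraries, so a direction under ash-2 RNAi alone holds across the scalings for the 3 skr genes only.

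Within the ash-2 background, adding hsf-1 RNAi went with higher levels of all 5. Both clones against ash-2 alone gave changes of 1.40 ± 0.54 for cul-6, 2.11 ± 0.43 for skr-3, 2.34 ± 0.22 for skr-4, 3.31 ± 0.41 for skr-5 and 5.07 ± 0.61 for eol-1. All but cul-6, 4 of the 5, were higher with no overlap, beside 12.9% of tested genes. In that comparison all 5 were higher with no overlap without the 4 libraries with few detected genes, beside 23.5%. Within hsf-1 RNAi, adding ash-2 RNAi gave -0.41 ± 0.54 for cul-6, -0.32 ± 0.43 for skr-3, -0.25 ± 0.22 for skr-4, -0.49 ± 0.41 for skr-5 and -0.17 ± 0.61 for eol-1, and 0 of the 5 left the overlap (beside 8.77% of tested genes that were lower with no overlap). Without the 4 libraries, skr-4 alone was lower with no overlap there, beside 23.8%. The departures from additivity on the log2 scale were 0.16 ± 0.75 for cul-6, 0.95 ± 0.59 for skr-3, 0.59 ± 0.30 for skr-4, 0.94 ± 0.57 for skr-5 and 0.19 ± 0.83 for eol-1. Their median over all tested genes was 0.23 as deposited, 0.01 under median of ratios, -0.02 under quantiles and -0.20 without the 4 libraries.

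**Figure D3:**
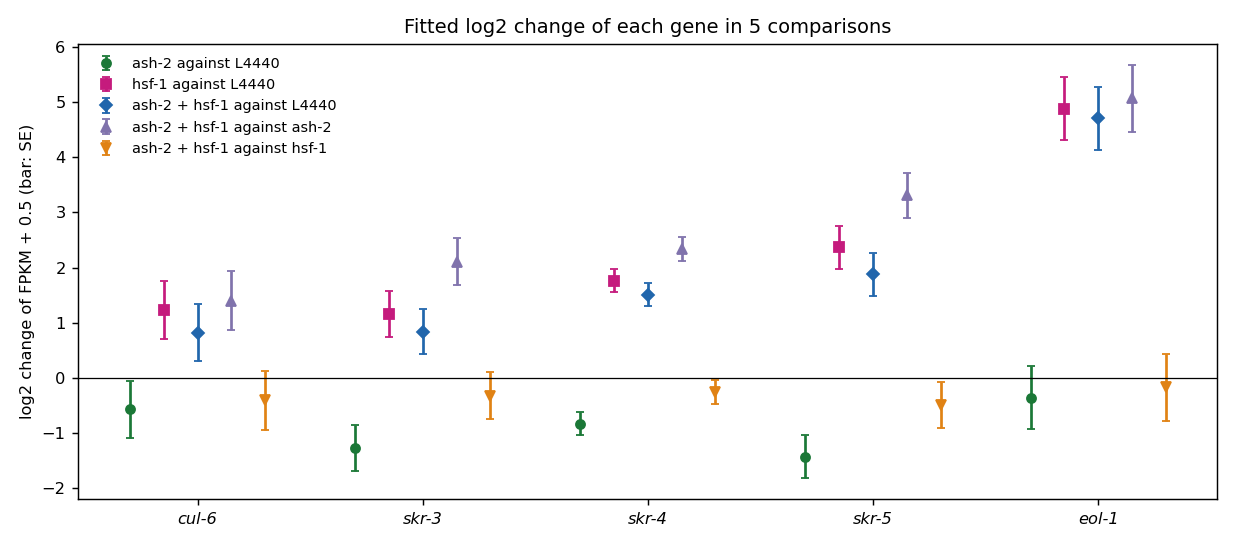
Fitted log2 change of FPKM + 0.5 (vertical axis, bars give the SE) for cul-6, skr-3, skr-4, skr-5 and eol-1 in 5 comparisons between RNAi groups. Changes against L4440 lie above 0 in both groups fed hsf-1 RNAi and below 0 in ash-2, while ash-2 + hsf-1 against hsf-1 lies between -0.49 and -0.17.

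The libraries with few detected genes were also those with the lowest levels. hsf-1 replicate 4 was the lowest of its group for 5 of the 5 genes, and the pair of ash-2 libraries held the lowest 2 values for 5 of 5. ash-2 + hsf-1 replicate 3 was the lowest of its group for 4 of 5, all but skr-4. The median log2 difference of all tested genes from the L4440 mean was also low: -0.79 and -0.53 in ash-2 replicates 1 and 3, and -0.56 in hsf-1 replicate 4. It was -0.27 in ash-2 + hsf-1 replicate 3, beside -0.37 in replicate 4 of that group. The share of all genes lowest in these libraries was not counted, so nothing particular to the 5 genes is read from these counts. Without the 4 libraries with few detected genes the mean under hsf-1 RNAi was 7.19-fold that of L4440 for cul-6, 2.73-fold for skr-3, 3.85-fold for skr-4 and 8.12-fold for skr-5. Under ash-2 RNAi it was then 0.366-fold for cul-6, 0.626-fold for skr-4, 0.335-fold for skr-5 and 1.255-fold for eol-1. Under both clones it was 5.09-fold for cul-6, 2.19-fold for skr-3, 2.80-fold for skr-4, 5.90-fold for skr-5 and 51.4-fold for eol-1. The part of these libraries in the values with all 17 was not tested beyond leaving them out.

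Other named partners of CUL-6 were read next. RCS-1 is a RING-like protein of the ligase, and FBXA-75 and FBXA-158 are its known F-box proteins. In hsf-1 against L4440, 3 of the 3 rose in limma's moderated test across all 13084 genes (adjusted p under 0.05, the threshold for every call here), beside 7.72% of all tested genes. rcs-1 stood at 3.58, 5.61 and 8.12 FPKM (lowest, median and highest) in L4440 and at 41.8, 47.4, 43.1 and 6.64 under hsf-1 RNAi, a log2 change of 2.26 ± 0.57 with limma's adjusted p = 0.0156. Replicate 4 of hsf-1 was the only one of these 4 inside the L4440 range. fbxa-75 and fbxa-158 passed the filter only through libraries fed hsf-1 RNAi, where they are high, so counts that include them are descriptions in each comparison with a group fed hsf-1 RNAi. The p-values given here for both genes in those comparisons are from the fit with no filter on low values. In that fit 2 of the 3 passed in hsf-1 against L4440, rcs-1 and fbxa-158.

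fbxa-75 was at most 0.265 FPKM in every L4440 library and at 2.66, 3.56, 5.32 and 0.199 FPKM under hsf-1 RNAi (log2 change 2.08 ± 0.61), and it did not pass with no filter (limma adjusted p = 0.0682). fbxa-158 was at 0.644, 0.725 and 1.08 FPKM (lowest, median and highest) in L4440 and at 6.56, 8.59, 8.51 and 5.22 under hsf-1 RNAi, with no overlap (2.52 ± 0.31, limma adjusted p = 7.46e-05 with no filter). The rcs-1 call was lost without hsf-1 replicate 1, 2 or 3 (limma adjusted p = 0.0546, 0.0627 and 0.0659). With the filter the fbxa-75 call was lost without any one L4440 library, without hsf-1 replicate 1, 2 or 3 or without ash-2 + hsf-1 replicate 1.

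Under both clones against L4440, rcs-1 (2.1 ± 0.57, limma adjusted p = 0.027) and fbxa-158 (2.79 ± 0.31, limma adjusted p = 3.41e-05 with no filter) rose, beside 3.68% of all tested genes, and fbxa-75 was at 1.92 ± 0.61 and did not pass (limma adjusted p = 0.112 with no filter). The rcs-1 call was lost with no filter (limma adjusted p = 0.0509), without L4440 replicate 1, 3, 4 or 5 and without ash-2 + hsf-1 replicate 1, 2 or 4, with an adjusted p up to 0.0842 in limma. Under ash-2 RNAi alone fbxa-158 fell (-1.16 ± 0.31, limma adjusted p = 0.0117), beside 15.5% of tested genes that were called lower. Its 4 ash-2 libraries were at 0, 0.177, 0.0798 and 0.125 FPKM, all below the L4440 range. Without the libraries with few detected genes its limma adjusted p was 0.0579, and under quantile normalization 0.462. For both clones against ash-2 alone all 3 were called with the filter, beside 12% of tested genes, as a description. With no filter fbxa-158 passed there (3.95, limma adjusted p = 2.23e-06) and fbxa-75 did not (2.1, limma adjusted p = 0.0672).

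**Figure D4:**
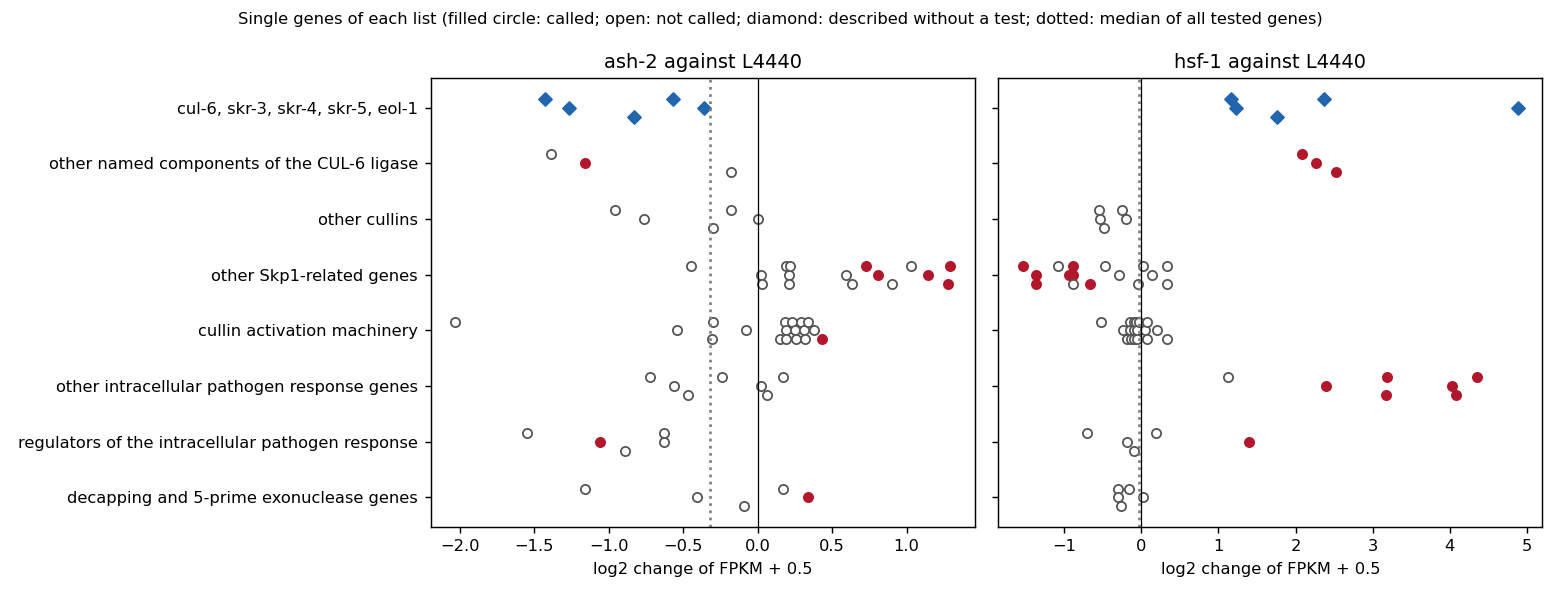
Log2 change of FPKM + 0.5 (horizontal axis) for single genes of each list, in ash-2 against L4440 and hsf-1 against L4440; filled circles passed limma's adjusted p threshold of 0.05, open circles did not, diamonds were not tested, and the dotted line is the median of all tested genes. In hsf-1 against L4440 the 3 CUL-6 ligase partners and 6 of 7 pathogen response genes are filled to the right of 0, and 7 of 16 other Skp1-related genes are filled to the left. The fills are from the fit with the filter. fbxa-75, fbxa-158 and all of the 7 but B0507.8 passed that filter only through libraries fed hsf-1 RNAi, so their fills in that panel are descriptions. fbxa-75 did not pass with no filter.

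Other cullins were not called. For cul-1, cul-2, cul-3, cul-4 and cul-5, 0 of 5 passed limma's threshold in any of the 5 comparisons, and 0 of 5 at an unadjusted p under 0.05. Their median log2 change was -0.48 in hsf-1 against L4440 and -0.30 in ash-2 against L4440. cul-1, the cullin of the general SCF ligase, was at -0.55 ± 0.43 in hsf-1 against L4440. The enzymes that load, neddylate and recycle cullins gave 0 calls of 18 in hsf-1 against L4440 (0 at an unadjusted p under 0.05 in limma), with a median of -0.08. In ash-2 against L4440 1 of the 18, ubc-3, a ubiquitin-conjugating enzyme of the CDC34 type, rose by 0.43 ± 0.11 (limma adjusted p = 0.00948). That call was lost under median-of-ratios scaling and without the 4 libraries.

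Some other Skp1-related genes fell under hsf-1 RNAi. Of 16 tested, 7 fell and 0 rose in hsf-1 against L4440, with a median log2 change of -0.77 beside -0.03 for all tested genes, of which 2.91% were called lower. In ash-2 against L4440 5 rose and 0 fell, with a median of 0.61 and beside 4.17% of tested genes called higher. In both clones against L4440 0 of 16 passed in limma, and 1 had an unadjusted p under 0.05. skr-7 showed both shifts: its lowest, median and highest levels were 34.8, 37.5 and 40.5 FPKM in L4440. Its ash-2 libraries ran from 70.3 to 123 FPKM and its hsf-1 libraries from 12.7 to 25.9, each clear of L4440. Its log2 change was 1.28 ± 0.21 in ash-2 (limma adjusted p = 0.000245) and -0.93 ± 0.21 in hsf-1 (limma adjusted p = 0.00736, and 0.0696 under median-of-ratios scaling).

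skr-10 changed by 1.29 ± 0.37 in ash-2 and -1.36 ± 0.37 in hsf-1 (limma adjusted p = 0.0212 and 0.0251). skr-14 changed by 1.14 ± 0.27 and -0.88 ± 0.27 (limma adjusted p = 0.0058 and 0.047). skr-13 was at 1.03 ± 0.36 and -1.08 ± 0.36 and passed in neither (limma adjusted p = 0.0554 and 0.0693). The count of 7 in hsf-1 rested on single libraries: it was 1 (skr-7) without hsf-1 replicate 3, 2 without hsf-1 replicate 4 or L4440 replicate 1 or 2, 3 without L4440 replicate 3 or 5, and 4 without L4440 replicate 4 or ash-2 replicate 3, and also with no filter. The count of 5 in ash-2 was 3 without ash-2 replicate 1 or 3, 3 without the 4 libraries with few detected genes (the skr-10, skr-14 and skr-15 calls were lost), and 10 under median-of-ratios scaling. skr-1 and skr-2, the adaptors of the general SCF ligase, were at 0.14 and -0.04 in hsf-1 against L4440 and were not called.

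Genes of the intracellular pathogen response outside the set and the pals family were tested from a list written with earlier results of these libraries known. Of 7 tested, 6 rose and 0 fell in hsf-1 against L4440, beside 7.72% of all tested genes called higher, with a median log2 change of 3.18. All but B0507.8 passed the filter only through libraries fed hsf-1 RNAi, where they are high, so this count and those for the other comparisons with a group fed hsf-1 RNAi are descriptions. With no filter the count was also 6, and the p-values below for these genes are from that fit. The 7 are sdz-6, F26F2.1, F26F2.3, F26F2.4, F26F2.5, B0507.6 and B0507.8, response genes of mostly unknown function. F26F2.3 was at 0.107, 0.611 and 0.650 FPKM (lowest, median and highest) in L4440 and at 28.1, 30.7, 33.8 and 2.98 under hsf-1 RNAi (4.35 ± 0.66, limma adjusted p = 0.000717). F26F2.4 had a median of 0 in the L4440 libraries and ran from 3.96 to 14.6 FPKM under hsf-1 RNAi (4.03 ± 0.39, limma adjusted p = 9.6e-06). sdz-6 rose by 3.17 ± 0.23 (limma adjusted p = 2.06e-07), and F26F2.5 by 2.39 ± 0.32 (limma adjusted p = 0.00022).

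B0507.6 was the 1 not called there (1.12 ± 0.45, limma adjusted p = 0.209). In both clones against L4440 6 of the 7 were called higher, with the filter and without it, beside 3.68% of all tested genes, with a median of 3.08. In ash-2 against L4440 0 of 7 passed in limma, 1 had an unadjusted p under 0.05, and the median was -0.24. Both clones against ash-2 alone gave 7 of 7 called higher, beside 12%, as a description. That count was 6 in 5 other settings, no filter and quantile normalization among them, and also without any one library other than hsf-1 replicates 3 and 4 and ash-2 + hsf-1 replicate 3.

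The pals family is described without a test, since the set was chosen with it. There are 38 pals genes in the data, of which 31 passed the filter, 24 of them only through libraries fed hsf-1 RNAi. In hsf-1 against L4440 all 31 had changes above 0, with a median of 1.53, and 17 were higher with no overlap, beside 10.5% of all tested genes. In both clones against L4440 29 were above 0, with a median of 1.47. In ash-2 against L4440 27 of the 31 were below 0, with a median of -0.48, but under quantile normalization 24 were above 0 and the median was 0.18. pals-5, the usual reporter gene of the response, was at 0.208, 0.423 and 0.679 FPKM (lowest, median and highest) in L4440 and at 4.06, 4.98, 6.25 and 1.40 under hsf-1 RNAi.

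Of 5 regulators tested, 1 rose and 0 fell in hsf-1 against L4440, beside 7.72% of tested genes called higher, and 0 rose and 1 fell in ash-2 against L4440, beside 15.5% called lower. zip-1, a bZIP factor needed for part of the response, rose by 1.40 ± 0.43 in hsf-1 against L4440 (limma adjusted p = 0.0445) and by 1.41 ± 0.43 under both clones (limma adjusted p = 0.0491). Both calls were lost with no filter (limma adjusted p = 0.0728 and 0.0826). The first was also lost without L4440 replicate 1, 3, 4 or 5, ash-2 replicate 2, hsf-1 replicate 1, 2 or 3 or ash-2 + hsf-1 replicate 1, and the second without 12 of the 17 libraries, with limma's adjusted p up to 0.171 and 0.14. pnp-1, a purine nucleoside phosphorylase that restrains the response, fell by 1.06 ± 0.19 on the log2 scale in ash-2 (limma adjusted p = 0.000531) and fell by 1.03 ± 0.19 under both clones (limma adjusted p = 0.00164), beside 5.4% of tested genes called lower there. It was at -0.19 ± 0.19 in hsf-1 against L4440, where it was not called. drh-1, a RIG-I-like RNA sensor, was at -0.09, lin-35, the retinoblastoma homologue, at -0.70 and sta-1, a STAT factor, at 0.19 in hsf-1 against L4440. In ash-2 against L4440 drh-1, lin-35 and sta-1 were at -0.63, -1.55 and -0.63, and they passed in neither comparison. The levels of pals-22, the repressor, and pals-25, the activator, were 2.54 ± 0.478 and 1.78 ± 0.304 FPKM in L4440 and 4.09 ± 1.63 and 2.297 ± 1.27 under hsf-1 RNAi, and each overlapped between those groups.

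**Figure D5:**
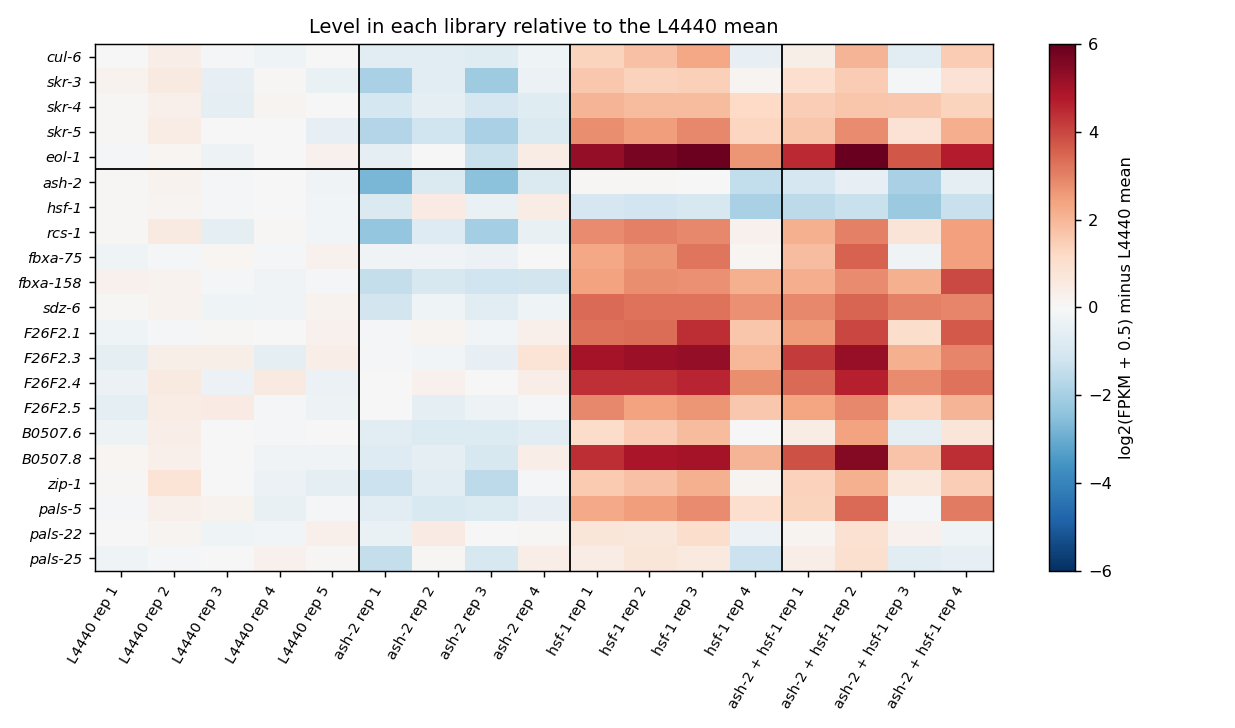
Level of each gene in each library as log2(FPKM + 0.5) minus its mean over the L4440 libraries (colour scale, red for higher and blue for lower), with cul-6, skr-3, skr-4, skr-5 and eol-1 above the line and both targets, ligase partners, other response genes, zip-1 and 3 pals genes below it. hsf-1 replicate 4 and ash-2 + hsf-1 replicate 3 are paler than the other libraries of their groups in most of the ligase and response genes, and cul-6 is below 0 in both.

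Other decapping and 5′ exonuclease genes, the relatives of eol-1 by activity, were not called in hsf-1 against L4440 (0 of 5 in limma, 0 at an unadjusted p under 0.05). Their median log2 change was -0.26. dcap-2, the catalytic decapping subunit, was at -0.26 ± 0.27. dcap-1, its partner, rose by 0.34 ± 0.10 in ash-2 (limma adjusted p = 0.0227), a call lost without L4440 replicate 1 or 2, without ash-2 replicate 1 or 3, without the 4 libraries and under both rescalings.

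Markers of tissues were read beside these changes, since the response is known mainly from the intestine. All 9 intestine markers in the table were detected in every library. Their summed FPKM ran from 1109 to 1203 in L4440, from 867 to 1039 in ash-2, from 1402 to 1641 in hsf-1 and from 948 to 1274 under both clones. By that sum the hsf-1 group was above L4440 and the ash-2 group below it, while the double RNAi group overlapped L4440. Abundant genes weigh most in the sum: ifb-2 alone averaged 94.7 FPKM in L4440 and 294.5 in hsf-1. The median log2 change of the 9 against L4440 was 0.15 in hsf-1, -0.75 in ash-2 and -0.17 under both clones, so the list did not rise as a whole under hsf-1 RNAi. Singly, 3 of the 9 rose in hsf-1 against L4440, beside 7.72% of all tested genes: ifb-2 (1.60 ± 0.14, limma adjusted p = 1.32e-06) and ifc-2 (1.26 ± 0.16, limma adjusted p = 4.71e-05), intestinal intermediate filament proteins, and elt-2, the GATA factor of the intestine (1.37 ± 0.42, limma adjusted p = 0.0453).

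The elt-2 call was lost with no filter, without any one L4440 library, without hsf-1 replicate 1, 2 or 3 or without ash-2 + hsf-1 replicate 1. ges-1, the gut esterase, fell (-1.07 ± 0.31, limma adjusted p = 0.0364), a call lost with no filter, without the 4 libraries with few detected genes, without L4440 replicate 1, 2, 3 or 4 or without hsf-1 replicate 2 or 4. In ash-2 against L4440 2 of the 9 fell, beside 15.5% of all tested genes, ifb-2 (-0.75 ± 0.14, limma adjusted p = 0.00112) and ifc-2 (-0.78 ± 0.16, limma adjusted p = 0.00166), and both calls were lost under median-of-ratios scaling (limma adjusted p = 0.0993 and 0.106). Of 6 germline markers 0 passed in either comparison in limma, and 0 at an unadjusted p under 0.05. Of 5 pharynx markers tested 0 passed in hsf-1, and in ash-2 1 fell, the myosin gene myo-1 (-0.66 ± 0.19, limma adjusted p = 0.0171), a call lost under both rescalings and without ash-2 replicate 1. Of 4 sperm markers tested 4 fell in ash-2, beside the same 15.5%, and 0 passed in hsf-1 in limma (1 at an unadjusted p under 0.05). The summed FPKM of the 6 sperm markers in the table was 68.5 to 83.8 in L4440, 3.30 to 12.8 in ash-2, 102 to 156 in hsf-1 and 30.4 to 45.9 under both clones, with no overlap between any of the groups. The part of these tissues in the levels of the 5 genes was not tested.

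Genes with the most similar pattern were ranked by Pearson's r of log2(FPKM + 0.5) over the 17 libraries, which share groups and depth, so r is a description. For cul-6 they were srp-8 (a serpin, r = 0.973), the F-box genes fbxa-189 (0.969), fbxa-31 (0.961) and fbxa-61 (0.959), and kgb-2, a JNK-like kinase (0.958). For skr-3 they were W09G12.7 (0.986), elt-2 (0.976), htrl-1 (0.976), Y58A7A.5 (0.973) and C18A11.1 (0.973). For skr-4 they were Y46G5A.20 (0.983), C34H4.1 (0.979), F53B2.8 (0.977), bath-47 (0.975) and sdz-6 (0.972). None of the 5 genes was in the list of another. For skr-5 the list was T19D12.4 (0.981), C25F9.12 (0.980), F07E5.9 (0.978), fbxa-188 (0.978) and R09A1.3 (0.975), and for eol-1 it was droe-8 (0.989), Y37H2A.14 (0.987), R03H10.6 (0.986), B0403.3 (0.986) and C08E8.4 (0.985). With each group's mean taken away, r was 0.975 for srp-8 with cul-6, 0.960 for W09G12.7 with skr-3, 0.838 for Y46G5A.20 with skr-4, 0.885 for T19D12.4 with skr-5 and 0.930 for droe-8 with eol-1.

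Among themselves, the 10 pairs of the 5 genes had r from 0.729 (cul-6 and skr-4) to 0.953 (skr-4 and skr-5), with a median of 0.872. Within groups r ran from 0.408 (cul-6 and skr-4) to 0.896 (cul-6 and skr-5), with a median of 0.752. Without the 4 libraries with few detected genes the lowest pair was at 0.888.

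The genes are not clustered in the genome. In WBcel235, the build named for the files, cul-6 lies on chromosome IV from 12586485 to 12590451 on the minus strand, a gene of 7 exons in its longest transcript. The other 4 lie on chromosome V: eol-1 from 13979462 to 13980907 (minus strand, 6 exons), skr-3 from 16121084 to 16122649 (plus, 4 exons), skr-5 from 17347902 to 17348723 (plus, 3 exons) and skr-4 from 19924224 to 19925033 (plus, 3 exons). Neighbouring starts on V are 2.14, 1.23 and 2.58 megabases apart. All are annotated as protein coding.

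Of 11 genes next to them or overlapping them, 7 were tested, and 1 was called in hsf-1 against L4440 and 2 in ash-2 against L4440. Of all tested genes 10.6% and 19.6% were called in either direction in those comparisons, and nothing is read from counts this small. K08E7.8, left of cul-6, was at 0.43 ± 0.32 in hsf-1 against L4440 (limma adjusted p = 0.511), and algn-7, right of skr-4, at 0.25 ± 0.24 (limma adjusted p = 0.634). end-1, a GATA factor gene right of eol-1, was at 0 to 0.979 FPKM in L4440 and 1.11 to 1.49 in ash-2 and was called there (0.91 ± 0.31, limma adjusted p = 0.0471), but it passed the filter through its ash-2 libraries and the call was lost with no filter (limma adjusted p = 0.0685) and without the 4 libraries with few detected genes (0.164). Leaving out 1 library ended the call for L4440 replicate 1, 3, 4 or 5, any one ash-2 library, hsf-1 replicate 1, 2 or 3 or ash-2 + hsf-1 replicate 1. skr-5 sits in a denser place. fbxa-189 ends 120 bases before skr-5 on the same strand. It was at 0.390 to 0.732 FPKM in L4440, 0 to 0.199 in ash-2 and 0.442 to 3.35 under hsf-1 RNAi. fbxa-189 passed the filter only through libraries fed hsf-1 RNAi. Its change in hsf-1 against L4440 (1.27 ± 0.48) is therefore a description, and it was not among the calls counted above.

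skr-5 overlaps lsy-27 by 59 bases on the opposite strand, and lsy-27, a zinc finger gene, moved the other way (chosen for mention after its values were seen). It was at 22.3 to 28.2 FPKM in L4440 and 11.5 to 16.9 under hsf-1 RNAi (-0.79 ± 0.16, limma adjusted p = 0.0029), and at 34.3 to 41.7 under ash-2 RNAi (0.59 ± 0.16, limma adjusted p = 0.0118). The library kit keeps strand, but whether strand was used in counting is not given in the sources used here, so reads from the shared bases could be split between skr-5 and lsy-27.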

How the data were processed

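Values are FPKM per gene from whole-animal, poly(A), strand-keeping RNA-seq libraries, as deposited by the authors. Per the submitters' processing notes, cutadapt, HISAT2, StringTie and build WBcel235 were used, with no versions given. Counts per gene were not used here, so depth is unknown apart from an estimate from the smallest FPKM steps. The 4 groups of 4 or 5 libraries were taken from the sample labels. Replicate numbers are those of the sample titles. The hsf-1 and ash-2 + hsf-1 libraries titled replicate 4 carry the number 5 in the submitters' own labels.

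FPKM was transformed to log2(FPKM + 0.5). Genes at FPKM of at least 1 in at least 4 of 17 libraries were kept (13084 of 26786). limma 3.58.1 in R 4.3.3 fitted 4 group means in 1 model (trend and robust eBayes), with Benjamini-Hochberg adjustment over all tested genes and a threshold of 0.05. The fit was tested on simulated data with known changes in the hsf-1 group. Noise there was independent between libraries, with the spread each gene had in L4440. The simulation lacks the wider spread and the shared shifts of the RNAi libraries, so it does not show how the calls behave in these data. Targets were compared by exact permutation tests (scipy 1.17.1).

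The 5 genes and all lists were chosen with earlier results of these data known. Named were the 5 genes, both targets, all listed ligase partners, pals-5, pals-22 and pals-25, up to 4 genes per other list by smallest adjusted p, and the 5 genes with the highest correlation to each of the 5. lsy-27, F26F2.1, B0507.6, B0507.8, skr-1, skr-2, skr-8, skr-9, skr-15, skr-21, ges-1, drh-1 and genes next to the 5 were added later. The list names skr-11, B0507.10 and opt-2 matched no row. Alternatives were other pseudocounts, no filter, 2 rescalings, plain eBayes, a replicate block, a covariate, 2 groups only, and libraries left out. Genes that passed the filter only through libraries fed hsf-1 RNAi have p-values from the fit with no filter in comparisons with those libraries. The replicate-block p-values of fbxa-75 are an exception, as the block was run with the filter, and are descriptions.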

Additional observations from a re-analysis of the deposited data

Results flagged for a closer look

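Of 52 gene-by-group sets of 4 or 5 libraries examined with Dixon's test, 3 held a library far from the others, where chance flags about 1 in 20. cul-6 under ash-2 RNAi stood at 0.222 FPKM in replicate 4, with a gap to the next library of 0.887 of the group's range. The ash-2 transcript under hsf-1 RNAi stood at 5.57 FPKM in replicate 4, with a gap of 0.95 of the range. rcs-1, the RING-like partner of CUL-6, stood at 6.64 FPKM in hsf-1 replicate 4, with a gap of 0.864 of the range. hsf-1 replicate 4 is 1 of the 4 libraries with few detected genes.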

How the results depend on the processing

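Across 27 alternatives the changes of the 5 genes kept their sign in hsf-1 against L4440, in both clones against L4440 and in both clones against ash-2. Against L4440, hsf-1 ranged from 0.86 to 1.81 for cul-6, 0.84 to 1.48 for skr-3, 1.62 to 1.94 for skr-4, 2.09 to 2.73 for skr-5 and 4.48 to 5.63 for eol-1. Changes involving ash-2 moved most. A pseudocount of 0.1 gave -1.43 for cul-6 and -2.23 for skr-5 in ash-2 against L4440, and 2.46 and 4.32 in both clones against ash-2. Median-of-ratios scaling gave -0.51 for skr-4 in ash-2. Quantile normalization gave -0.38 for skr-4 and -0.64 for skr-5 in ash-2, and 2.00 and 2.64 in both clones against ash-2. Without the 4 libraries with few detected genes skr-3 was at -0.51 in ash-2. With the number of detected genes as a covariate, ash-2 against L4440 gave 0.62 for cul-6, -0.12 for skr-3, -0.46 for skr-4, -0.42 for skr-5 and 1.10 for eol-1, and both clones against ash-2 gave 0.40, 1.15, 2.03, 2.46 and 3.85. That covariate is an extrapolation, since the ash-2 and L4440 libraries did not overlap in the number of detected genes. Under it 6 values turned past the threshold: 0.64 for hsf-1, 0.85 for cul-4, 0.54 for dcap-2, 0.66 for Y37H2A.14 and 1.19 for B0507.8 in ash-2 against L4440, and 0.55 for rcs-1 in both clones against hsf-1. For these shifts the cause was not tested.

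Genes called in hsf-1 against L4440 numbered 1391 (27.4% lower), and 2157 under quantile normalization (46.1% lower), 5181 with the covariate (64.5% lower) and 2867 without the 4 libraries. Both clones against L4440 gave 1188, 1792 (quantile) and 2449 (covariate). Both clones against ash-2 gave 2061 (23.9% lower), 3548 (covariate, 58.7% lower) and 1206 with only the 2 groups compared (13.8% lower). Both clones against hsf-1 gave 1270 (86.8% lower), 4635 (covariate, 36.4% lower), 418 (2 groups) and 2259 (without the 4). ash-2 against L4440 gave 2570 (78.8% lower), 2951 under quantile normalization (44.7% lower), 3413 under median of ratios (62.7% lower) and 3710 with the covariate (38.0% lower). Leaving out 1 library gave 1815 to 3212 for ash-2, 845 to 1877 for hsf-1, 853 to 1536 for both clones, 1424 to 2686 for both against ash-2 and 791 to 2162 for both against hsf-1. Of the list counts 2762 were within 1.5 times the reported count and 208 moved.

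Same-numbered libraries of different groups, by the title numbers, had deviations correlated from -0.689 to 0.686 (24 pairs, median 0.226, 14 over 0.1). The other 84 pairs had a median of -0.081, with 32 over 0.1. The value of -0.689 is ash-2 replicate 4 with hsf-1 replicate 4, a library that the submitters' labels number 5. With L4440 replicate 5, hsf-1 replicate 4 was at 0.352 and ash-2 + hsf-1 replicate 4 at 0.0751. Counts of pairs and the replicate block are not given for the label numbers. In another group, 9 of 16 libraries correlated best with one of their own number. As not every pair is over 0.1 and no label says what a number marks, the numbers are not taken to pair the samples. With the replicate block, 2614, 1072, 1098, 2052 and 1302 genes were called in the 5 comparisons, in the order ash-2, hsf-1 and both clones against L4440, then both against ash-2 and against hsf-1. The block left limma's adjusted p above the threshold for fbxa-75 (0.0844), zip-1 (0.107), elt-2 (0.0696), skr-9 (0.0559) and skr-15 (0.0886) in hsf-1 against L4440, for rcs-1 (0.0515) and zip-1 (0.106) in both clones against L4440, and for fbxa-75 (0.0598) in both clones against ash-2. The planned motif search in promoters was not run, as no promoter sequence was at hand.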
